A study of Mus musculus with 10 samples.

Results

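The Cyp4a genes of mouse encode microsomal cytochrome P450 enzymes that hydroxylate the terminal carbon of fatty acids. Cyp4a10, Cyp4a12a, Cyp4a12b, Cyp4a14, Cyp4a31 and Cyp4a32 were followed by the gene symbols of the array annotation. Of these 6 symbols 5 had a probe, with 6 probes in all, among 16383 genes and 23438 probes on the array. Cyp4a32 had no probe and is not analysed further. The family was chosen by its differences between the genotypes in earlier results of these data, in which Cyp4a14 and Cyp4a31 stood among the genes lower in the mutant. The difference between the genotypes is therefore described for the members without a test, and nothing is supported with it.

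Liver RNA of 6 Tgfbr2+/- mice, which carry 1 inactivated copy of the gene for the type II receptor of TGF-beta, was set against that of 4 wild-type (WT) littermates, each hybridised on a 2-colour array against a pool of liver RNA from 6 WT mice. All mice were on chow. The titles call the Tgfbr2+/- mice males and give no sex for the WT mice, and the age, the strain and the design of the mutant allele are not given in the sources used here. Values are log2 ratios over the pool, differences are Tgfbr2+/- minus WT on the log2 scale, and a negative difference means lower in Tgfbr2+/- liver.

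Omega-hydroxylation gives dicarboxylic acids that are shortened in peroxisomes, a side route of fatty acid breakdown that grows in importance when fatty acids reach the liver in excess. Cyp4a10 and Cyp4a14 are classical targets of PPAR-alpha, the nuclear receptor that senses fatty acids in hepatocytes, and rise on fasting and with fibrate drugs. In mouse liver Cyp4a12a is predominantly a male gene and Cyp4a14 is higher in females. The Cyp4a12 enzymes also hydroxylate arachidonic acid to a product that constricts blood vessels.

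Several properties of the libraries bear on all values. The ratio was taken as sample over pool. The labels make this direction likely without stating it, and if every column runs the other way each sign here turns. Over all probes libraries correlated with one another at a Pearson r of -0.32 to 0.52. Tgfbr2+/- replicate 5 and WT replicate 1 gave the lowest value (Spearman's rho -0.35), so the labels and the correlations between libraries do not settle the direction of either column, and main values are also given with each of them turned in sign. Single genes bear on this. Moxd1, a male-biased monooxygenase-like gene, was at -5.18 in WT replicate 1 as deposited and at -4.84 to -4.64 in the other WT libraries, so that turning this column would take it far from its group. Hao2, a peroxisomal hydroxyacid oxidase, was at -1.39 in Tgfbr2+/- replicate 5 as deposited and at -1.14 to -0.69 in the other Tgfbr2+/- libraries. The same library had the highest Moxd1 of all, at 2.44, with the other Tgfbr2+/- libraries spread from -4.81 to 0.44. Its female-biased genes Cyp2b9 and Cyp2b13 were at -2.41 and -2.56 as deposited. The other Tgfbr2+/- libraries were at -3.42 to -0.75 and -3.00 to -0.86 for these 2 genes. Turning the column would take both out of the range of its group. The Tgfbr2 probe 10024401828 was at -0.86 in Tgfbr2+/- replicate 5 and averaged -0.70 ± 0.48 in Tgfbr2+/- (SD, n = 6) and 0.17 ± 0.43 in WT (SD, n = 4). At 0.20, the library labelled Tgfbr2+/- replicate 4 had a WT level of this probe, against its label. The other Tgfbr2 probe, 10024408236, averaged 0.06 ± 0.17 in Tgfbr2+/- and 0.13 ± 0.08 in WT. Ratios against a liver pool cannot show how abundant a marker is, so the tissue label was not checked against marker levels. Nothing in the labels names a batch.

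The measured members fell into 2 sets that differed in opposite directions. Cyp4a14, Cyp4a31 and Cyp4a10 were lower in Tgfbr2+/- liver by a mean of -0.42 ± 0.13 (SE, n = 6 and 4), or 1.34-fold, whereas Cyp4a12a and Cyp4a12b were higher by a mean of 0.26 ± 0.18, or 1.20-fold, which is within the spread of the libraries. These means were -0.39 and 0.02 with the sign of WT replicate 1 turned, and -0.31 and 0.13 with that of Tgfbr2+/- replicate 5 turned. The mean over all 5 members was -0.10 ± 0.16 in Tgfbr2+/- and 0.05 ± 0.18 in WT (SD), a difference of -0.15 ± 0.11 that mixes the 2 sets. It was -0.07 without WT replicate 2, -0.22 with WT replicate 1 turned and -0.13 with Tgfbr2+/- replicate 5 turned. The split into sets was made after the values were seen.

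Cyp4a14 was the member whose genotypes did not overlap. Its log2 ratio ranged from -0.63 to -0.03 with a median of -0.38 in Tgfbr2+/- liver, against 0.10, 0.32, 0.13 and -0.01 in WT replicates 1 to 4. All 6 Tgfbr2+/- libraries lay below all 4 WT libraries, although Tgfbr2+/- replicate 3 at -0.03 and WT replicate 4 at -0.01 nearly met. The group means were -0.34 ± 0.23 (SD, n = 6) and 0.13 ± 0.14 (SD, n = 4), a difference of -0.48 ± 0.12 (SE), or 1.39-fold lower. The difference was -0.43 with WT replicate 1 turned and -0.32 with Tgfbr2+/- replicate 5 turned, and the groups then overlapped. Without the library labelled Tgfbr2+/- replicate 4, the lowest of all, it was -0.42.

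Although Cyp4a10 probe 10024405698 spread more in WT (SD 0.35), Cyp4a31, a close relative of Cyp4a10, had the widest spread of this set by gene means. It ranged from -0.85 to -0.14 with a median of -0.42 in Tgfbr2+/-, against 0.04, 0.34, -0.15 and -0.17 in WT replicates 1 to 4. Tgfbr2+/- replicates 4 and 1, at -0.85 and -0.77, were far below the rest, and replicate 3, at -0.14, lay above 2 of the 4 WT libraries. The means were -0.47 ± 0.29 in Tgfbr2+/- and 0.01 ± 0.24 in WT, a difference of -0.48 ± 0.15 or 1.40-fold lower. It was -0.47 with WT replicate 1 turned and -0.41 with Tgfbr2+/- replicate 5 turned, and -0.41 without the library labelled Tgfbr2+/- replicate 4.

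The 2 probes of Cyp4a10 did not give the same picture. Probe 10024405698 had -0.75, -0.08, -0.07, -0.68, -0.45 and -0.43 in Tgfbr2+/- replicates 1 to 6, against 0.33, 0.64, -0.11 and -0.04 in WT replicates 1 to 4. WT replicates 1 and 2 stood above all Tgfbr2+/- libraries, and WT replicates 3 and 4 were within the Tgfbr2+/- range or just above it. Its difference was -0.61 ± 0.17, or 1.53-fold lower, the largest among the 6 probes, and it was -0.45 with WT replicate 1 turned, -0.46 with Tgfbr2+/- replicate 5 turned and -0.56 without the library labelled Tgfbr2+/- replicate 4. Probe 10024412995 stayed between -0.16 and 0.21 in Tgfbr2+/- libraries and between -0.22 and 0.12 in WT libraries. Its means were 0.01 ± 0.13 in Tgfbr2+/- and -0.02 ± 0.15 in WT, a difference of 0.03 ± 0.08 that became -0.08 with WT replicate 1 turned and 0.08 with Tgfbr2+/- replicate 5 turned. Averaged over both probes Cyp4a10 differed by -0.29 ± 0.11. The probe sequences were not used here, and which of the near-identical transcripts of Cyp4a10, Cyp4a31 and Cyp4a32 each probe reads was not tested.

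Cyp4a12a differed in the opposite direction with a wide overlap. It ranged from 0.05 to 0.94 with a median of 0.32 in Tgfbr2+/-, against -0.62, 0.31, 0.17 and 0.30 in WT replicates 1 to 4. All 6 Tgfbr2+/- libraries were above the pool, Tgfbr2+/- replicate 2 stood highest, and WT replicate 1 was far below every other library. The means were 0.36 ± 0.32 in Tgfbr2+/- and 0.04 ± 0.44 in WT, a difference of 0.32 ± 0.21 that is no larger than the SD of the WT libraries. WT replicate 1 carried most of it: the difference was 0.10 without that library and 0.01 with its sign turned. With Tgfbr2+/- replicate 5 turned it was 0.19, and without the library labelled Tgfbr2+/- replicate 4 it was 0.31.

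Cyp4a12b followed Cyp4a12a at a smaller size. It ranged from -0.06 to 0.42 with a median of 0.12 in Tgfbr2+/-, against -0.35, 0.10, 0.01 and 0.10 in WT replicates 1 to 4. Again WT replicate 1 was the lowest library and Tgfbr2+/- replicate 2 the highest, and the groups overlapped. The means were 0.17 ± 0.20 in Tgfbr2+/- and -0.04 ± 0.21 in WT, a difference of 0.20 ± 0.12 that was 0.10 without WT replicate 1, 0.03 with its sign turned and 0.07 with Tgfbr2+/- replicate 5 turned. RefSeq records the older name Cyp4a12 for both genes, and signal shared between these near-identical copies could not be told apart with these probes.

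**Figure D1:**
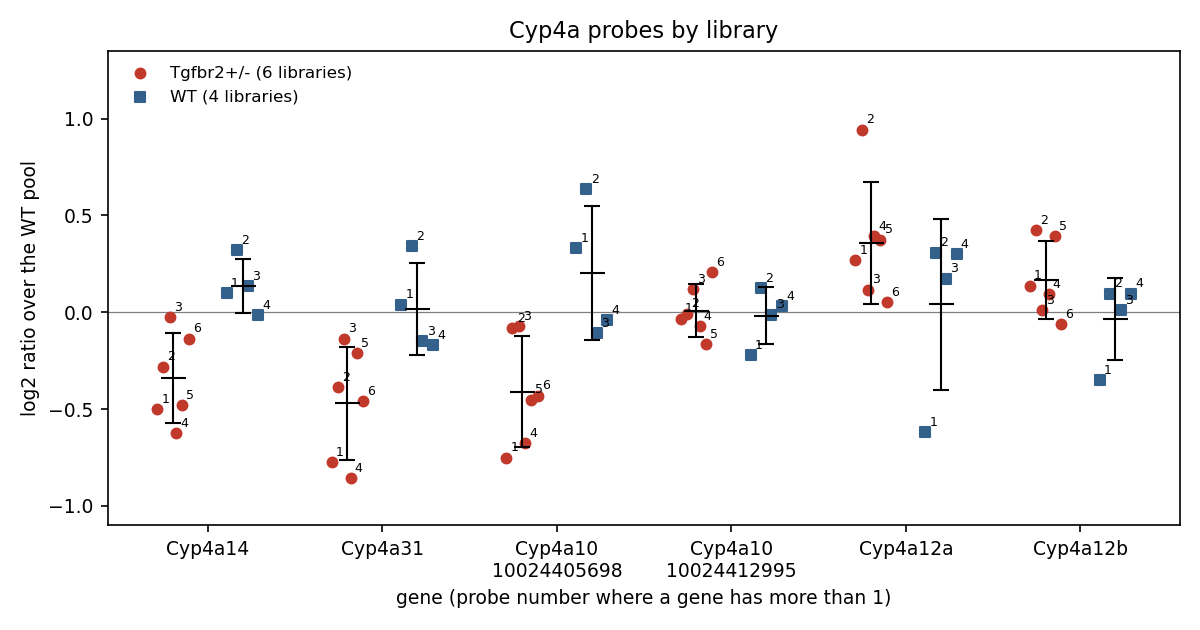
The 6 Cyp4a probes by library, as log2 ratio over the WT pool. Circles are the 6 Tgfbr2+/- libraries and squares the 4 WT libraries, numbered by replicate, and black bars give the mean ± SD. Cyp4a14 lies at or below -0.03 in all Tgfbr2+/- libraries, and WT replicate 1 stands apart at -0.62 for Cyp4a12a.

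Read across all genes, no difference between the genotypes passed correction. By limma with Benjamini-Hochberg adjustment 0 of 16383 genes had an adjusted p under 0.05 (0%), and 908 genes, 5.54% of all, had an unadjusted p under 0.05, 2.57% lower and 2.97% higher in Tgfbr2+/-. Among the members 0 of 5 passed the adjusted threshold and 3 of 5, those of the lower set, were under the unadjusted one. Groups that did not overlap were found for 1 of 5 members, Cyp4a14, and for 1.08% of all genes. Since the members were chosen with this comparison known, these counts are a description only. With Tgfbr2+/- replicate 5 turned in sign 0 of 5 members and 3.11% of all genes were under the unadjusted threshold, and with WT replicate 1 turned 3 of 5 members and 3.56% of all genes were. In bulk liver a lower value from fewer cells of a type and from less RNA per cell cannot be told apart.

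The mean of all 10 libraries was also set against the pool. It holds the same Tgfbr2+/- values as the difference that chose the family, so it is no independent support for it, and the counts among the members are a description only. Cyp4a31 lay below the pool at -0.28 ± 0.08 (SE, 10 libraries), Cyp4a14 at -0.15 ± 0.06 and Cyp4a10 at -0.08 ± 0.05, while Cyp4a12a lay above it at 0.23 ± 0.10 and Cyp4a12b at 0.08 ± 0.06. None of the 5 passed limma's adjusted threshold, and among all genes only Hao2 did, which is 0.0061% of them. Unadjusted, 3 of the 5, namely Cyp4a31, Cyp4a14 and Cyp4a12a, were under 0.05, as were 15.6% of all genes. This test leaves out the spread of the pool itself and any dye bias. All 5 means kept their sign in each of the 16 alternatives run, but their size moved. With Tgfbr2+/- replicate 5 turned Cyp4a14 was at -0.06, Cyp4a10 at -0.02, Cyp4a12b at 0.006, Cyp4a12a at 0.16 and Cyp4a31 at -0.23. With WT replicate 1 turned Cyp4a12a was at 0.35, Cyp4a12b at 0.15, Cyp4a14 at -0.17, Cyp4a10 at -0.09 and Cyp4a31 at -0.28. Leaving out 1 library moved 4 of the 5 by over 1.5 times. Cyp4a10 was at -0.05 without Tgfbr2+/- replicate 1 or the library labelled Tgfbr2+/- replicate 4 and at -0.14 without WT replicate 2. Cyp4a14 was at -0.10 without the library labelled Tgfbr2+/- replicate 4, and Cyp4a12a at 0.15 without Tgfbr2+/- replicate 2. Cyp4a12b was at 0.05 without Tgfbr2+/- replicate 2 or 5 and at 0.13 without WT replicate 1.

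Within each set the members varied together from library to library. Across the 10 libraries Cyp4a14 and Cyp4a10 had a Pearson r of 0.92 (Spearman's rho 0.83), Cyp4a14 and Cyp4a31 one of 0.87 (rho 0.89), and Cyp4a12a and Cyp4a12b one of 0.92 (rho 0.82). Part of this comes from the difference between genotypes. With the group means taken out, r was 0.87, 0.73 and 0.90 for these 3 pairs, so the members also varied together within the genotypes. Without the 2 libraries farthest from the median of the first gene of each pair, r was 0.86, 0.73 and 0.74. Cyp4a10 stands here for the mean of its 2 probes, which correlated with each other at 0.10. Probe 10024412995 alone had an r of 0.33 with Cyp4a14. How far probes of near-identical genes read shared transcripts was not tested. The libraries share one pool, and these correlations are given as descriptions.

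Ranked against the rest of the array, each gene's nearest relatives in sequence were near the top. Of 16382 other genes Cyp4a10, with its probes averaged, was number 5 in correlation with Cyp4a14 and Cyp4a31 was number 20. Cyp4a12b was number 12 in correlation with Cyp4a12a. With the group means taken out the places were 24, 232 and 30. With WT replicate 1 turned they were 3, 25 and 23, and with Tgfbr2+/- replicate 5 turned 8, 1 and 1.

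The 2 sets did not move together. Cyp4a12a and Cyp4a14 had an r of -0.40 over the 10 libraries and -0.11 with the group means taken out, and Cyp4a12b and Cyp4a14 had -0.49 and -0.21. The first of these was -0.25 with WT replicate 1 turned and -0.52 with Tgfbr2+/- replicate 5 turned. Individual mice varied in this. WT replicate 1, the lowest in Cyp4a12a, was at 0.10 in Cyp4a14, above the pool and below the WT mean of 0.13. WT replicate 2 was the highest WT library in both genes, at 0.31 and 0.32. Tgfbr2+/- replicate 2, the highest in Cyp4a12a, was at -0.28 in Cyp4a14, the 3rd highest of its group. Between these 2 genes r was 0.19 within the 4 WT libraries and -0.27 within the 6 Tgfbr2+/- libraries.

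The Cyp4a10 probe with the smaller difference varied with Cyp4a14 within the Tgfbr2+/- libraries and less so over all. Probe 10024412995 correlated with Cyp4a14 at r = 0.33 (rho 0.35) over the 10 libraries, 0.82 within the 6 Tgfbr2+/- libraries and 0.69 over all 10 with group means taken out. For probe 10024405698 these values of r were 0.89, 0.77 and 0.74. The 2 probes correlated with each other at 0.10 over all 10 libraries and 0.27 with group means taken out. With Cyp4a31 the first of them, 10024405698, had an r of 0.93 and the second, 10024412995, one of 0.09.

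**Figure D2:**
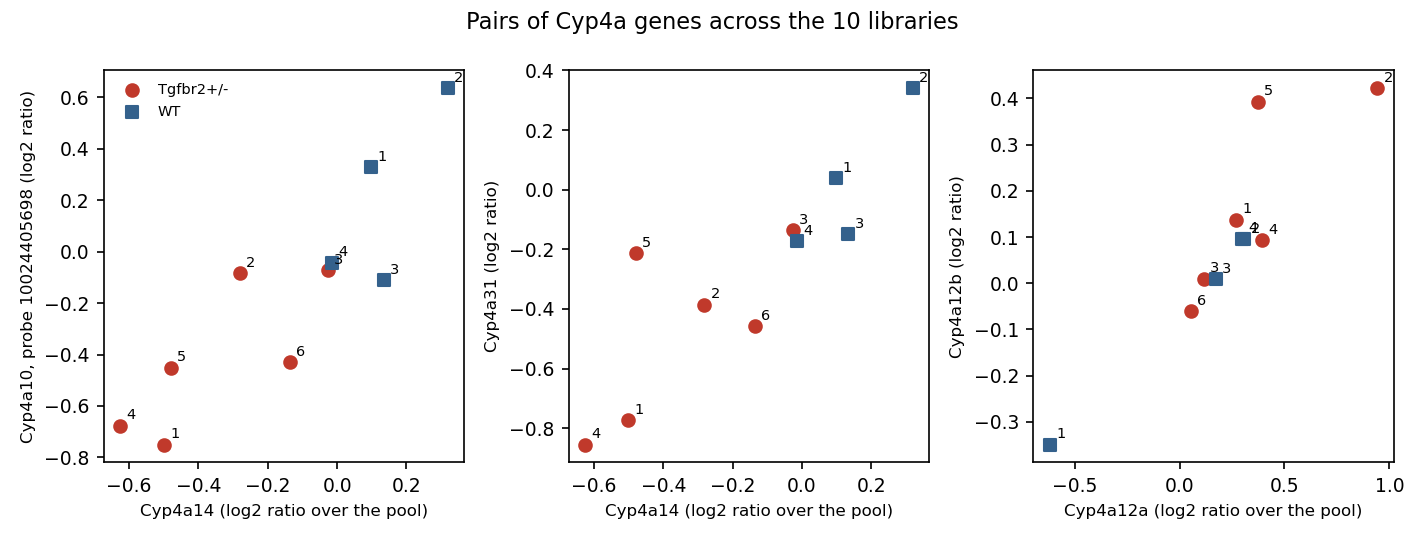
Pairs of Cyp4a genes across the 10 libraries, as log2 ratios over the WT pool on both axes. Circles are Tgfbr2+/- and squares WT libraries, with their replicate numbers. Cyp4a10 is shown by probe 10024405698 alone. Tgfbr2+/- replicates 1 and 4 are lowest in the first and second panels (r = 0.89 and 0.87), and WT replicate 1 is lowest in the third (r = 0.92).

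All members lie in a tandem cluster on chromosome 4. In the RefSeq gene order of assembly GRCm38.p6, used here only for which genes adjoin, Cyp4a12a and Cyp4a12b come first, followed by Cyp4a30b, then Cyp4a14, Cyp4a10, Cyp4a31 and Cyp4a32. The lower set is thus a run of neighbours, with no measured gene among them, and the higher set sits at the other end. The measured genes between did not share either shift. Cyp4a30b averaged -0.001 ± 0.16 in Tgfbr2+/- and 0.10 ± 0.12 in WT, a difference of -0.10 ± 0.08, and the pseudogene Cyp4a30-ps, which lies between Cyp4a12a and Cyp4a12b, differed by -0.01 ± 0.04.

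Genes flanking the cluster were close to 0. The 5 nearest measured genes before it, Cmpk1, Stil, Tal1, Pdzk1ip1 and Cyp4x1, and the 5 after it, Cyp4b1, Efcab14, Atpaf1, Mob3c and Mknk1, differed by -0.16 to 0.11 with a median of 0.02. None of the 10 was under an unadjusted limma p of 0.05, and the groups overlapped for each. The range was -0.10 to 0.06 with WT replicate 1 turned and -0.13 to 0.10 with Tgfbr2+/- replicate 5 turned.

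**Figure D3:**
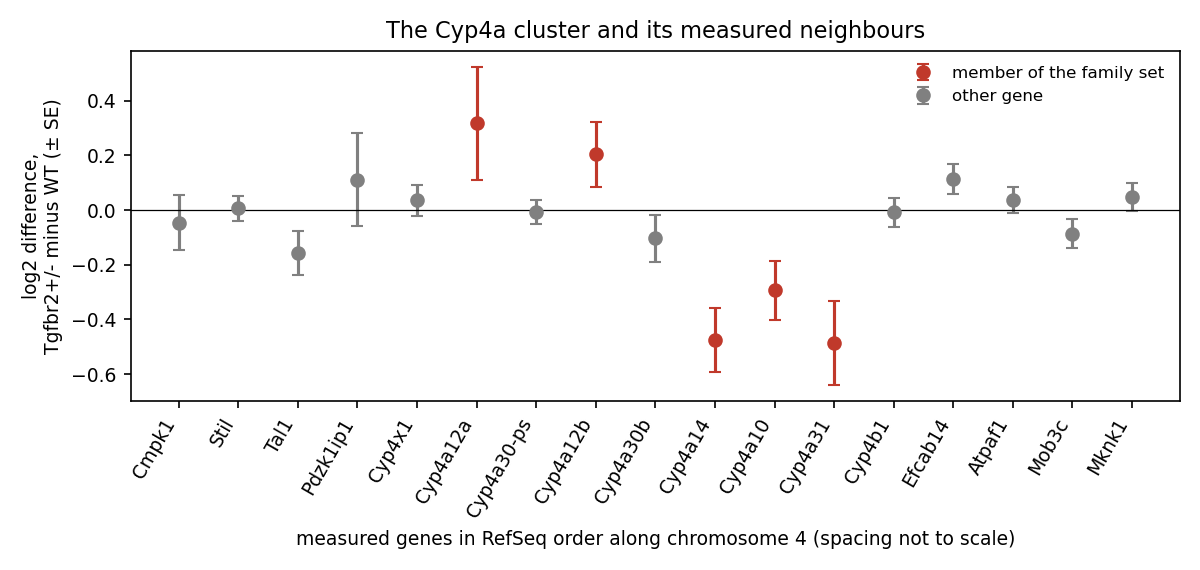
Differences between Tgfbr2+/- and WT (log2, ± SE) for the measured genes of the Cyp4a cluster and 5 measured genes on each side, in RefSeq order along chromosome 4. Cyp4a12a and Cyp4a12b lie above 0, Cyp4a14, Cyp4a10 and Cyp4a31 below -0.2, and the flanking genes between -0.16 and 0.11.

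Other Cyp4 genes, which hydroxylate fatty acids or eicosanoids in liver and elsewhere, were at most slightly different. Of 15 listed genes 10 were measured, with differences from -0.11 to 0.05 and a median of -0.03, against 0.004 for all genes. The largest were those of Cyp4f15 (-0.11 ± 0.09), Cyp4a30b, Cyp4f18 (-0.07 ± 0.07) and Cyp4f39 (-0.06 ± 0.06), followed by Cyp4f16 (0.05 ± 0.06), Cyp4x1 (0.04 ± 0.06) and Cyp4f14 (-0.03 ± 0.10). Cyp4f13 (-0.02 ± 0.07), Cyp4f17 (0.01 ± 0.04) and Cyp4b1 (-0.01 ± 0.05) were nearest to 0. None was under an unadjusted limma p of 0.05, also with either column turned.

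The listed PPAR-alpha targets outside the family leaned the same way as Cyp4a14, by less. Peroxisomal enzymes such as Ehhadh and Acaa1a were not in this list but in that of omega-hydroxylation products, given below. Of 36 measured genes 28 had negative differences, where 47.4% of all genes did, and the median was -0.09. The mean of the list overlapped between the groups, at -0.36 to 0.07 in Tgfbr2+/- libraries and -0.07 to 0.05 in WT libraries. By limma 0 passed the adjusted threshold, 3 were lower and 1 higher at an unadjusted p under 0.05, against 2.57% and 2.97% of all genes. The lipid droplet proteins Cidec (-1.12 ± 0.61) and Plin5 (-0.69 ± 0.25), the acyl-CoA thioesterase Acot1 (-0.36 ± 0.22) and the fatty acid transporter Cd36 (-0.35 ± 0.37) had the largest negative values. Fabp1, the cytosolic fatty acid binding protein of hepatocytes (0.54 ± 0.18), and Lpl, lipoprotein lipase (0.30 ± 0.45), had positive ones. Negative differences numbered 26 with WT replicate 1 turned and 23 with Tgfbr2+/- replicate 5 turned, with medians of -0.06 and -0.04. At the unadjusted threshold 2 were then lower and 1 higher with WT replicate 1 turned, and 0 lower and 2 higher with Tgfbr2+/- replicate 5 turned. Of all genes 3.56% and 3.11% were then under it in either direction.

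The receptor and its partners showed no common direction. Of 14 measured genes 9 had positive differences and the median was 0.02, which was 0.05 with WT replicate 1 turned and -0.002 with Tgfbr2+/- replicate 5 turned. Ppara itself averaged 0.06 ± 0.06 in Tgfbr2+/- and -0.12 ± 0.12 in WT, a difference of 0.18 ± 0.06. The repressor Nr0b2, known as SHP (0.44 ± 0.14), the coactivator Ppargc1a (-0.36 ± 0.20), the cytochrome b5 reductase Cyb5r3 (0.28 ± 0.14), the partner receptor Rxrg (-0.24 ± 0.14) and the mediator subunit Med1 (-0.12 ± 0.05) completed the 6 largest. By limma 0 passed the adjusted threshold, and 1 was lower and 2 higher at an unadjusted p under 0.05, against 2.57% and 2.97% of all genes.

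Genes that carry the products of omega-hydroxylation onward were not shifted as a group. Of 21 measured alcohol and aldehyde dehydrogenases, acyl-CoA synthetases and peroxisomal genes 12 had negative differences, with a median of -0.01 that turned to 0.02 and 0.03 with WT replicate 1 or Tgfbr2+/- replicate 5 turned. The largest were the peroxisomal transporter Abcd2 (-0.42 ± 0.40), the alcohol dehydrogenase Adh4 (0.40 ± 0.16), the synthetases Acsl3 (0.28 ± 0.12) and Acsl4 (0.21 ± 0.17), the peroxisomal oxidase Acox2 (-0.21 ± 0.15) and the thioesterase Acot3 (-0.19 ± 0.22). By limma 0 passed the adjusted threshold, and 0 were lower and 3 higher at an unadjusted p under 0.05, against 2.57% and 2.97% of all genes.

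Most sex-biased liver genes had differences in the directions of the 2 Cyp4a sets. Of 28 measured female-biased genes 24 had negative differences, where 47.4% of all genes did, with a median of -0.26. At an unadjusted limma p under 0.05, 8 were lower and 0 higher, against 2.57% and 2.97% of all genes. The largest were Cyp2b9 (-1.86 ± 0.52), Cyp2b13 (-1.53 ± 0.47), Cyp2b10 (-0.98 ± 0.27), Cyp17a1 (-0.93 ± 0.41), Gstt3 (-0.64 ± 0.16) and Cyp39a1 (-0.55 ± 0.40). Of 31 measured male-biased genes 22 had positive differences, where 8619 of all 16383 genes did, with a median of 0.15. Of these 31, 0 were lower and 7 higher at that threshold. Moxd1 (3.18 ± 1.24), Ugt2b38 (1.48 ± 0.51), Nudt7 (0.57 ± 0.21), Hsd3b5 (0.54 ± 0.23), Cyp7b1 (0.46 ± 0.17) and Ces4a (0.40 ± 0.30) were the largest. Not all Tgfbr2+/- libraries shared the first of these. Moxd1 was at -4.50 and -4.81 in Tgfbr2+/- replicates 3 and 6, near the WT libraries. Ugt2b38 was at -1.35 in Tgfbr2+/- replicate 1, within the WT range of -1.73 to -0.90. No gene of either list passed the adjusted threshold. With Tgfbr2+/- replicate 5 turned the medians were -0.09 and 0.06. At the unadjusted threshold 0 female-biased genes were then lower and 1 male-biased gene was higher. With WT replicate 1 turned the medians were -0.21 and 0.09. Then 7 female-biased genes were lower, and 5 male-biased genes were higher and 1 lower. Of all genes 3.11% with Tgfbr2+/- replicate 5 turned and 3.56% with WT replicate 1 turned were under that threshold in either direction. The sex of the WT mice is not in the labels. The 5 measured Y-linked genes differed by -0.08 to 0.04, and their mean log2 ratio was -0.08 to 0.05 in Tgfbr2+/- libraries and 0.01 to 0.05 in WT libraries. The part of sex in the Cyp4a differences was not tested.

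Targets of CAR and PXR, receptors for drugs and other foreign compounds, share the Cyp2b genes and Gstt3 with the female-biased list. They were negative for 24 of 29, where 47.4% of all genes were, with a median of -0.17. Beside the shared genes the sulfotransferase Sult1d1 (-0.66 ± 0.17) and the glutathione transferase Gsta2 (-0.46 ± 0.30) differed most. With limma 8 were lower and 0 higher at an unadjusted p under 0.05, against 2.57% and 2.97% of all genes. None passed the adjusted threshold. With WT replicate 1 turned the median was -0.18 and 9 were lower at the unadjusted threshold, where 286 of all 16383 genes were. With Tgfbr2+/- replicate 5 turned the median was -0.04 and 0 were lower, where 246 of all genes were.

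**Figure D4:**
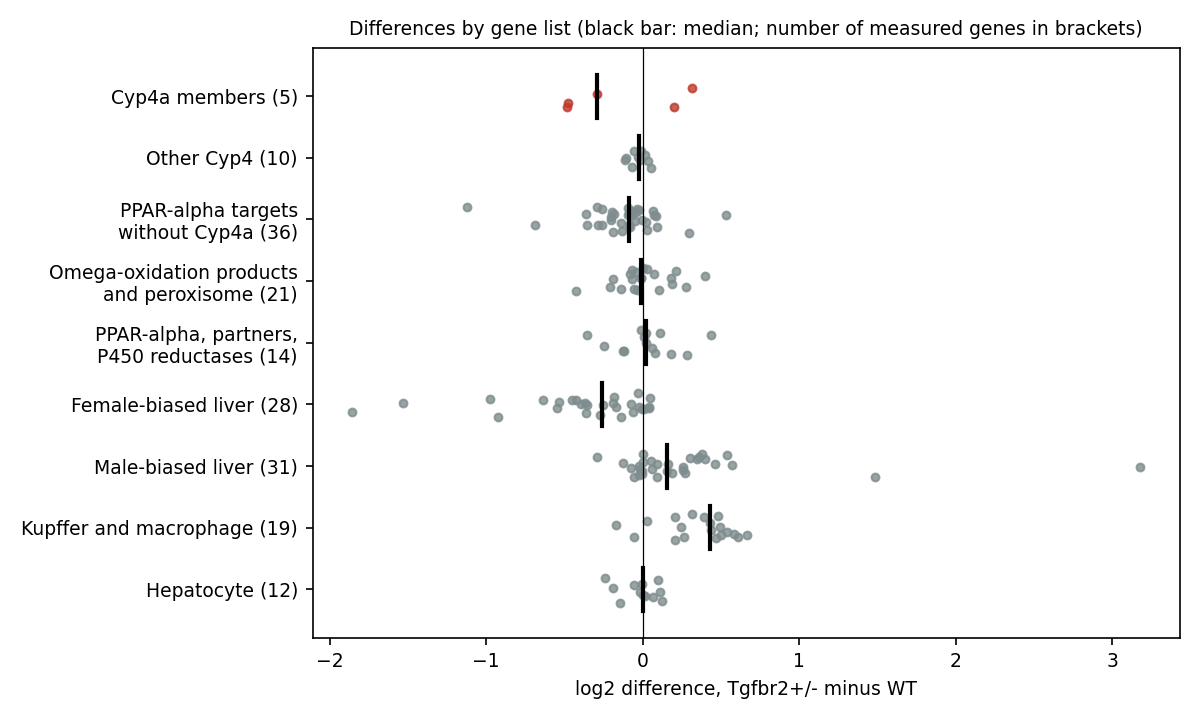
Differences between Tgfbr2+/- and WT (log2) for the measured genes of 9 lists, a point for each gene, with the median as a black bar. The Cyp4a members lie on both sides of 0, the other Cyp4 genes between -0.11 and 0.05, and the medians of the female-biased, male-biased and macrophage lists at -0.26, 0.15 and 0.43.

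Among markers of other cells those of macrophages differed most between the genotypes, and no marker passed limma's adjusted threshold. Of 19 measured Kupffer cell and macrophage markers 17 had positive differences, where 8619 of all 16383 genes did, with a median of 0.43. By limma 15 were higher and 0 lower at an unadjusted p under 0.05, where 2.97% of all genes were higher. The groups did not overlap for 10 of the 19, against 1.08% of all genes. With WT replicate 1 or Tgfbr2+/- replicate 5 turned 11 or 13 were higher, and 0 or 3 did not overlap. Of all 16383 genes 298 or 264 were then higher, and 42 or 52 did not overlap in that direction. The mean of the list was -0.02 to 0.25 in Tgfbr2+/- libraries and -0.22 to -0.15 in WT libraries. Cd5l (0.67 ± 0.10), Folr2 (0.61 ± 0.10) and Ctss (0.58 ± 0.09) were the largest, and the median was 0.29 or 0.34 with WT replicate 1 or Tgfbr2+/- replicate 5 turned. Of 11 neutrophil markers 10 were positive, with a median of 0.07, and S100a9 at 0.79 ± 0.18 was the largest. Their list mean was 0.03 to 0.25 in Tgfbr2+/- libraries and -0.14 to 0.02 in WT libraries. Hepatocyte markers, of the cells that express the Cyp4a genes in liver, had 6 negative and 6 positive differences and a median of -0.001, with list means of -0.16 to -0.01 in Tgfbr2+/- libraries and -0.18 to 0.08 in WT libraries. The medians of endothelial, stellate and lymphocyte markers were near 0, at 0.0002, -0.004 and 0.03. Of 11 kidney markers, listed because kidney also expresses Cyp4a genes, 5 were negative, with a median of 0.005 and Miox at -1.24 ± 0.61 the largest. The kidney list mean was -0.05 to 0.07 in Tgfbr2+/- libraries and 0.04 to 0.35 in WT libraries. The part of these cells in the Cyp4a differences was not tested.

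Outside the family, the genes most like Cyp4a14 across the 10 libraries were Ttpal (r = 0.94), Srsf2 (0.94), Sos1 (0.92), Golga7 (0.92), Ift172 (0.92) and Nkiras1 (0.91). Their differences between the genotypes were smaller than that of Cyp4a14, from -0.34 ± 0.09 for Ttpal to -0.06 ± 0.04 for Golga7. Golga7 had the highest r with the group means taken out (0.98), and the others had 0.76 to 0.87. With either column turned r stayed between 0.77 and 0.95. Those most like Cyp4a12a were Tmem74 (0.95), Vmp1 (0.95), Zfp819 (0.94), Myd88 (0.93), Hcrtr1 (0.92) and Ifi27 (0.92), with 0.91 to 0.94 after the group means were taken out and 0.81 to 0.96 with either column turned. Among 16382 genes and 10 libraries some correlate this highly with any profile, so the names describe these libraries only.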

How the data were processed

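The authors deposited 1 log10 ratio per probe and library, and the log10 base was inferred from 8 values at exactly 2 or -2, a limit of 100-fold. Column medians were 0.0013 to 0.0047. Background correction, normalization and how dye swaps enter a column are not given in the sources used here. They were turned into log2 ratios (times 3.32) and not normalized again. Of 23438 probes 17726 carried 1 gene symbol, 50 several and 5662 none here, and probes of a symbol were averaged to 16383 genes. Groups and replicate numbers came from the titles. Limma 3.58.1 in R 4.3.3 (lmFit, eBayes, two-sided) was fitted to all probes and to all genes with no covariate, Benjamini-Hochberg adjusted at 0.05, and tested on simulated data. The number of arrays limits the precision, and p-values measure the spread between these libraries.

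The members and the gene lists were chosen with earlier results of these data known. Named genes are the members, Tgfbr2, the 6 genes of highest r with Cyp4a14 and with Cyp4a12a, the other Cyp4 genes, 5 measured genes on each side of the cluster, and the 6 largest differences of each list (up to 3 for cell type markers). Alternatives left out each library, turned 2 columns in sign, centred or quantile-normalized the columns, weighted the arrays, kept the more variable probes or used a replicate block.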

Additional observations from a re-analysis of the deposited data

Results flagged for a closer look

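In Cyp4a12a the WT library replicate 1, at -0.62, stood far from the other WT libraries at 0.17 to 0.31, with a gap to the nearest of them that was 0.855 of the group's range, above Dixon's critical value. The mean of Cyp4a12a and Cyp4a12b stood apart in the same library, at -0.48 against 0.09 to 0.20, with a ratio of 0.839. In all 20 groups of member values were examined, 2 were flagged, and chance marks about 1 group in 20. The groups share values, since single probes and means over members are both among them. The flagged mean holds the flagged Cyp4a12a value, so the 2 flags are not separate. The labels and the correlations between libraries do not settle the direction of this column, although its Moxd1, at -5.18, lay near the -4.84 to -4.64 of the other WT libraries as deposited. Without this library the mean of the 2 genes differed between Tgfbr2+/- and WT by 0.10 in place of 0.26.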

How the results depend on the processing

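For Cyp4a14, Cyp4a31 and Cyp4a10 the difference between Tgfbr2+/- and WT was negative in all 17 alternatives run, at -0.54 to -0.32, -0.55 to -0.38 and -0.34 to -0.19. For Cyp4a12a and Cyp4a12b it was positive in all 17, at 0.01 to 0.41 and 0.03 to 0.25. The values for Cyp4a10 are those of its 2 probes averaged. Alone, probe 10024405698 was negative in all 17, at -0.72 to -0.45. Probe 10024412995 was negative in 3 of the 17, at -0.08 to 0.09. No member probe passed the adjusted threshold in any of these 17. The number of probes past it was 0 with all libraries and 0 to 15 when a library was left out, the 15 being without Tgfbr2+/- replicate 3. Probes at an unadjusted p under 0.05 numbered 1151, and 742 (without WT replicate 1) to 1585 (without WT replicate 4) when a library was left out. They numbered 753 with WT replicate 1 turned, 752 with Tgfbr2+/- replicate 5 turned, 1731 with array weights, 681 over the more variable probes, where fewer were tested, and 2108 with the replicate block. In the block Tgfbr2+/- replicates 5 and 6 have no WT library of their number and add nothing to the difference. It therefore compares replicates 1 to 4 of each genotype only. The block moved Cyp4a14 to -0.49, Cyp4a31 to -0.55 and left the mean over the 5 members at -0.15. The labels give no pairing by number. Deviations of same-numbered libraries from their group means correlated at 0.02 to 0.30, with 3 of 4 pairs over 0.1, and 6 of 8 libraries correlated best with their own number, a hint from the data and not from the design. The numbers were not taken as a pairing since not every pair was over 0.1, and the block changed no adjusted call. Against the pool 1 probe passed, 0 to 19 when a library was left out (19 without Tgfbr2+/- replicate 5), 2 with WT replicate 1 turned, 30 with Tgfbr2+/- replicate 5 turned, 2 with array weights, 2 over the more variable probes and 13 without Tgfbr2+/- replicates 4 and 5, an alternative chosen after seeing the data. List medians that moved by more than the pooled within-group SD of the libraries' own list medians were those of the PPAR-alpha regulators (0.0490 and -0.00195), the macrophage markers (0.29 and 0.34) with WT replicate 1 or Tgfbr2+/- replicate 5 turned, and the female-biased (-0.0930) and CAR and PXR genes (-0.0372) with Tgfbr2+/- replicate 5 turned. The mean over the 5 members was -0.21 to -0.07 when a library was left out. The correlation of Cyp4a12a with Cyp4a14 was -0.25 and -0.52 with these columns turned and -0.51 to -0.30 when a library was left out. The cause of these changes was not tested. No intensities were used here, so dim probes could not be left out.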

Other observations

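The genes most opposed to Cyp4a14 across the 10 libraries, chosen after their values were seen, were the macrophage Fc receptor Fcgr1 (r = -0.95), the malic enzyme Me2 (-0.94) and Pcolce2 (-0.94). With the group means taken out r was -0.85, -0.83 and -0.85, and with WT replicate 1 or Tgfbr2+/- replicate 5 turned in sign it stayed between -0.95 and -0.91. These genes were higher in Tgfbr2+/- liver by 0.54 ± 0.10, 0.30 ± 0.06 and 0.58 ± 0.09, none past limma's adjusted threshold. The genes most opposed to Cyp4a12a were Mast4 (-0.96), Ppp1r42 (-0.95) and 2610301B20Rik (-0.94), with -0.96, -0.93 and -0.94 after the group means were taken out.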
